A study of Homo sapiens with 12 samples.

Results

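The 9 genes described here are a ligand, receptor and readout set of the transforming growth factor beta (TGF-beta) pathway, namely TGFB1, TGFB2, TGFBR1, TGFBR2, SMAD2, SMAD3, SMAD4, SMAD7 and SKIL. They were found on the arrays through the RefSeq accession that the files give for each probe, matched to symbols in a human RefSeq gene table. The match named 23958 of the 41000 gene probes and 16557 genes, and 13 probes belonged to the 9 genes. Of these 13 probes, 11 had enough signal to be tested, at least 1 for each of the 9 genes, and 2 SMAD2 probes did not.

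Messenger RNA was measured on 12 one-colour Agilent whole-genome arrays of H358, an established human lung carcinoma cell line. All 12 arrays are labelled with H358, and the treatment protocol names the H358/Tet-On/SRSF2 inducible clone, a single clone that expresses SRSF2, a serine- and arginine-rich splicing factor, from a Tet-responsive promoter. The 6 arrays labelled SRSF2 over-expression are of cells given 1 µg/mL doxycycline for 24 hours, and the 6 arrays labelled control are of cells at 24 hours with the treatment given as none. The source names of the control arrays also speak of induction, so the labels alone do not settle whether these cells received doxycycline. The arrays lie on 3 slides, each with 2 arrays of both conditions, and the study's methods describe 2 arrays per labeling. The p-values therefore take arrays as replicates and measure a spread that is partly technical.

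TGF-beta ligands are secreted in a latent form and, once released, bind a type II receptor kinase, which recruits and phosphorylates a type I receptor kinase. The type I receptor phosphorylates the receptor SMADs, which join the common partner SMAD4, enter the nucleus and bind promoters and enhancers of target genes. Inhibitory SMADs and the SKI family of corepressors are themselves switched on by the pathway and hold it back. In lung epithelium the pathway is known for growth arrest and for the shift of epithelial cells towards a mesenchymal state.

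The scanner software put 54.18% to 67.81% of the spots well above background on the control arrays, and 55.17% to 68.03% on those labelled SRSF2 over-expression. Of the markers checked, 6 of 6 epithelial genes were well above background on all 12 arrays. The leukocyte gene PTPRC, the endothelial gene CDH5 and the fibroblast genes COL1A2, DCN and LUM were well above background on none. The leukocyte gene CD14 and the endothelial gene PECAM1 were on all 12. CD3E, a leukocyte gene, was on 5 of 6 arrays of both conditions on A_24_P86968. VWF, an endothelial gene, was on 5 control arrays and 6 others on A_23_P105562. Their other probes were on 0 control arrays, and on 3 and 1 of the others. The single SRSF2 probe, A_23_P77776, fell by 1.46 on the log2 scale (standard error 0.06, limma adjusted p = 1.68e-09) from the control arrays to those labelled SRSF2 over-expression. The conditions did not overlap, so this probe did not show the over-expression that the label names. Why it fell was not tested, nor whether the labels are exchanged or the probe misses the induced transcript. Every direction below is that of the arrays as labelled, and with the labels exchanged every sign, fold direction and rank would turn.

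The probes with an adjusted p of at most 0.05 were counted as higher or lower, and those with a change of at least 2-fold in addition as changed 2-fold. SKIL and SMAD3 carried the 2 changes past 2-fold, and they ran in opposite directions: SKIL was 5.93-fold higher and SMAD3 was at 48.7% of its control level on the arrays labelled SRSF2 over-expression. Smaller rises were measured for TGFB1, SMAD2, SMAD4 and SMAD7. The TGFBR1 probe was higher too, but it was well above background on 2 of 6 control arrays only and entered the test through the condition where it is high. The probes of TGFB2 and TGFBR2 did not pass the test. In all, 7 of the 11 tested probes were higher, where 29.7% of all 24330 tested probes were, and 1 was lower, where 28.0% were. Of the 7, 2 are probes of SMAD2. The members were chosen with earlier results of these data known, so these counts are a description. With all 12 arrays required to be well above background, 9 member probes were tested, without TGFB2 and TGFBR1, and 6 were higher and 1 lower, beside 6210 higher and 5953 lower of 20147 probes. At 2-fold, 1 member probe was higher and 1 was lower, against 3.68% and 3.31% of all tested probes. The arrays of the 2 conditions did not overlap for 7 of the 11 probes, and for 40.2% of all tested probes. The median log2 fold change of the 11 probes was 0.34, beside 0.01 over all tested probes. Scaling on spike-in controls in place of the 75th percentile raised the median of all probes from 0.0109 to 0.217 and changed the split of all calls from 7234 higher and 6808 lower to 5099 higher and 1536 lower. The members then had 6 higher and 1 lower.

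The promoters of SKIL and SMAD3 are shown because these are the genes whose probes passed 2-fold. Each stretch is the 250 bases before the first RefSeq start site of the gene on build GRCh38.p14, plus strand, read 5′ to 3′, at chr3:170357465-170357714 for SKIL and chr15:67065352-67065601 for SMAD3. Capitals mark matches, on either strand, to the 5 letters CAGAC, the short core element that SMAD3 and SMAD4 are known to bind.
SKIL: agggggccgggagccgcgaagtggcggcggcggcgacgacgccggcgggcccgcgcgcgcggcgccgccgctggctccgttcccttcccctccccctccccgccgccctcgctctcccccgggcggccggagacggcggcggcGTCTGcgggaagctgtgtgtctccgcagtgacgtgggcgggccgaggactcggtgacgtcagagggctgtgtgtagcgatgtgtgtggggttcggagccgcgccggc
SMAD3: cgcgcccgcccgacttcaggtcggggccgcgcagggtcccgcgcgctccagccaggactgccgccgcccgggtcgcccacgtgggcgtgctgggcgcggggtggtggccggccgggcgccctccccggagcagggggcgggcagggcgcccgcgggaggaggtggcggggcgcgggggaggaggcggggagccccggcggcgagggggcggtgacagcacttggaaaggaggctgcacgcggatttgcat
The SKIL stretch held 1 match, on the reverse strand, with 102 bases between it and the start, and the SMAD3 stretch held 0. Of the 5 SMAD3 promoters in the table, 2 of those at later start sites had matches, with 1 and 3. Such short matches are frequent: 38.0% of all 35116 RefSeq promoters had at least 1 in the same window, as did 10 of the 24 listed promoters of the 9 genes. The palindrome GTCTAGAC, which was searched separately and does not contain CAGAC on either strand, occurred in 0.182% of all promoters and in 0 of these 24. GGCGC and TGANTCA, where N is any base, were searched too and are not marked by capitals. GGCGC had 3 matches in the SKIL stretch and 7 in that of SMAD3, and TGANTCA had 0 in both. Of all promoters, 44.5% had GGCGC and 6.57% had TGANTCA, as did 11 and 1 of these 24. A match is a description of the letters only. GC content was 78.4% in the SKIL stretch and 80.8% in that of SMAD3.

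**Figure D1:**
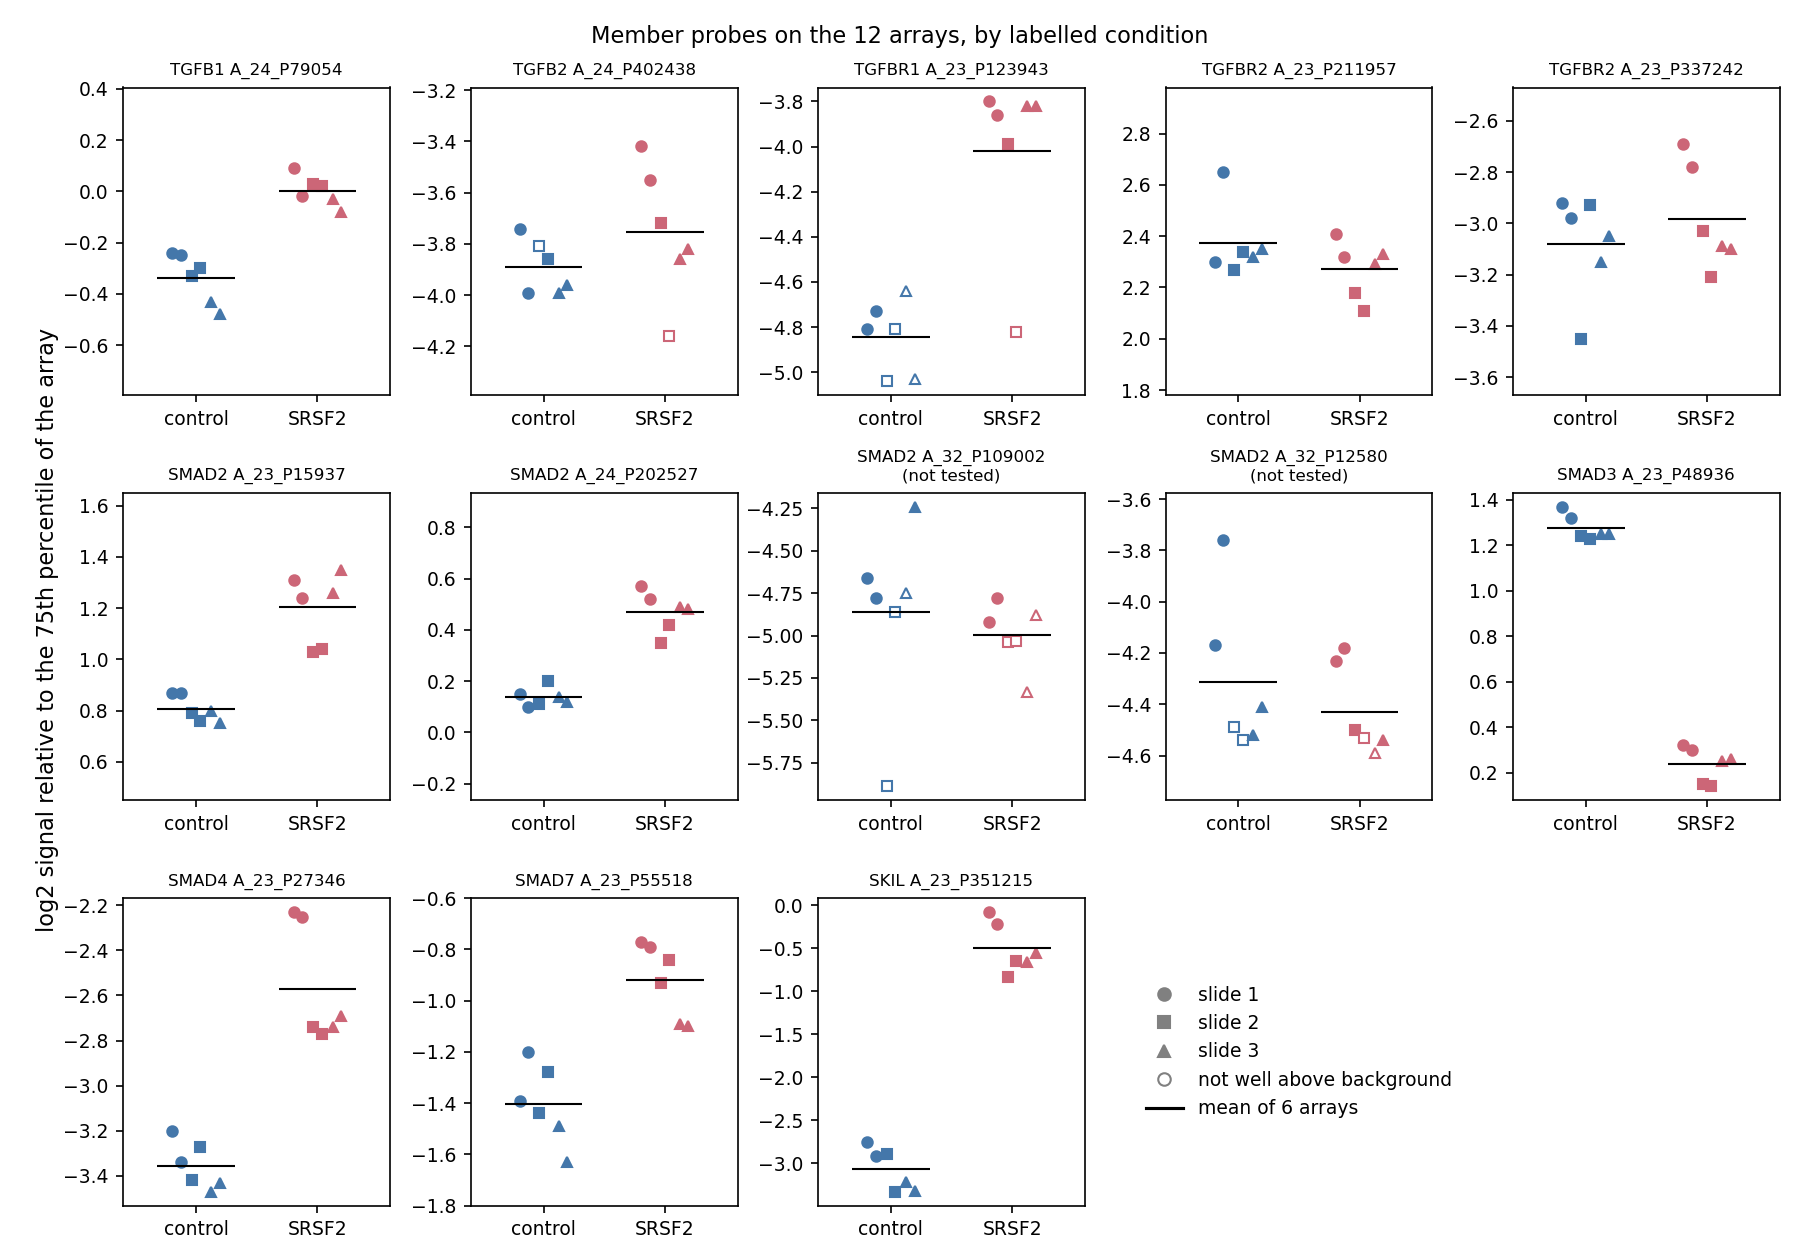
Log2 signal, scaled on each array's 75th percentile (vertical axis, a scale of its own in each panel) for the 13 probes of the 9 genes on 12 arrays, by labelled condition, with the slide given by the shape of the point, the mean by a line, and open points for values not well above background. SKIL shows the widest gap between the conditions, SMAD3 lies lower on all 6 arrays labelled SRSF2 over-expression, and TGFB2 and TGFBR2 overlap.

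The ligands come first. TGFB1, the most widely expressed ligand of the family, was represented by probe A_24_P79054. Levels are given as the log2 of the processed intensity minus the array's 75th percentile on that scale, called the log2 signal from here on. For TGFB1 it was -0.48 at the lowest, -0.31 at the median and -0.24 at the highest of the 6 control arrays. The 6 arrays labelled SRSF2 over-expression ran from -0.08 through a median of 0.00 to 0.09. Every one of these lay above every control array. The log2 fold change was 0.34 (standard error 0.05, 95% interval 0.22 to 0.46, limma adjusted p = 0.00015), a 1.27-fold rise, and within slides 1, 2 and 3 the difference was 0.28, 0.34 and 0.40. With normexp, another background correction, the value was 0.22 and did not pass (limma adjusted p = 0.119).

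TGFB2, a ligand with the same receptors that depends on betaglycan for tight binding, gave little signal above background on its probe, A_24_P402438, which was well above it on 5 of 6 arrays of both conditions. The control arrays had a log2 signal of -3.99 at the lowest, -3.91 at the median and -3.74 at the highest. The arrays labelled SRSF2 over-expression had -4.16, -3.77 and -3.42. The conditions overlapped, and the difference of 0.14 (95% interval -0.10 to 0.37) did not pass the test (limma adjusted p = 0.302; exact permutation test, two-sided p = 0.268). Within slide 2 it was -0.10, against 0.38 and 0.13 on slides 1 and 3.

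Of the receptors, TGFBR1, the type I receptor kinase also called ALK5, was measured by A_23_P123943 close to background. It was well above background on 2 of 6 control arrays and on 5 of 6 arrays labelled SRSF2 over-expression. The lowest, median and highest log2 signals were -5.04, -4.81 and -4.64 on the control arrays. For the arrays labelled SRSF2 over-expression they were -4.82, -3.84 and -3.80. Replicate 4 was the low one of that condition, in the range of the control arrays, and the other 5 lay above all controls. Without this array and control replicate 3, the pair with the fewest bright spots in their conditions, the change was 0.95. Leaving out this pair was chosen after seeing the data, so the value is a description only. Since the probe passed the filter only through the condition labelled SRSF2 over-expression, the fit is a description of a control level mostly near background. The fitted log2 fold change was 0.83 (standard error 0.16, 95% interval 0.48 to 1.18, limma adjusted p = 0.000708), or 1.77-fold, with 0.94, 0.52 and 1.02 within slides 1 to 3 and an exact permutation p of 0.0108. The change was 0.33 without background subtraction; with normexp the direction turned, to -0.21 (limma adjusted p = 0.843), and the probe was not tested where all 12 arrays had to be well above background.

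TGFBR2, the type II receptor that binds the ligand first, had 2 probes, which carry the accessions of different transcripts of the gene. Probe A_23_P211957 had log2 signals of 2.27, 2.33 and 2.65 on the control arrays, as the lowest, the median and the highest. The values were 2.11, 2.30 and 2.41 for the arrays labelled SRSF2 over-expression. These ranges overlap for most of their length, and replicate 2 of the controls stands above the rest. The difference was -0.10 (95% interval -0.26 to 0.06, limma adjusted p = 0.278; exact permutation test, two-sided p = 0.227). Probe A_23_P337242 ran from -3.45 through -3.01 to -2.92 on the control arrays and from -3.21 through -3.06 to -2.69 on the others. It overlapped as well, with a difference of 0.10 (95% interval -0.15 to 0.34, limma adjusted p = 0.488; exact permutation test, two-sided p = 0.437). Both intervals leave out a change of 2-fold in either direction. The sign depended on the processing for both probes: with spike-in scaling the first was at 0.11, and with normexp the first was at 0.091 and the second at -0.27.

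SMAD2 and SMAD3 are the receptor SMADs of this pathway, closely related proteins that the type I receptor phosphorylates, and here their probes moved in opposite directions. For SMAD2, probe A_23_P15937 had a log2 signal of 0.75 at the lowest, 0.80 at the median and 0.87 at the highest control array. The arrays labelled SRSF2 over-expression had 1.03, 1.25 and 1.35. All of them were above all controls, with slide 2 holding the lowest. The log2 fold change was 0.39 (standard error 0.06, 95% interval 0.25 to 0.53, limma adjusted p = 0.00017), or 1.31-fold.

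A second SMAD2 probe with the same accession, A_24_P202527, ran from 0.10 through 0.13 to 0.20 on the control arrays. It ran from 0.35 through 0.49 to 0.57 on the arrays labelled SRSF2 over-expression, again without overlap. Its rise of 0.33 (standard error 0.05, 95% interval 0.23 to 0.44, limma adjusted p = 5.41e-05), or 1.26-fold, was of the same size as that of the first probe within the intervals. It did not pass with spike-in scaling (0.54, limma adjusted p = 0.0585) or with normexp (0.21, limma adjusted p = 0.164). The remaining SMAD2 probes were too dim to enter the test. A_32_P109002 passed background on 3 control arrays and 2 others, and A_32_P12580, which carries the accession of another SMAD2 transcript, on 4 and 4. In a fit without the filter on dim probes their differences were -0.13 (limma adjusted p = 0.833) and -0.11 (limma adjusted p = 0.696).

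SMAD3, the receptor SMAD that binds DNA directly, had the only probe of the set that was lower. On A_23_P48936 the control arrays spanned 1.23 to 1.37 with a median of 1.25. The arrays labelled SRSF2 over-expression spanned 0.14 to 0.32 with a median of 0.26. The lowest control array lay 0.91 above the highest of the others, a gap wider than the range of either condition. The log2 fold change was -1.04 (standard error 0.05, 95% interval -1.15 to -0.93, limma adjusted p = 3.81e-09), which is 2.05-fold lower, and the slides gave -1.03, -1.09 and -0.99. Among all tested probes it ranked 723 from the bottom. It passed the test under all 18 alternative settings, with values from -1.06 to -0.81, and fell short of 2-fold with spike-in scaling (-0.83), with normexp (-0.81) and without background subtraction (-0.98).

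**Figure D2:**
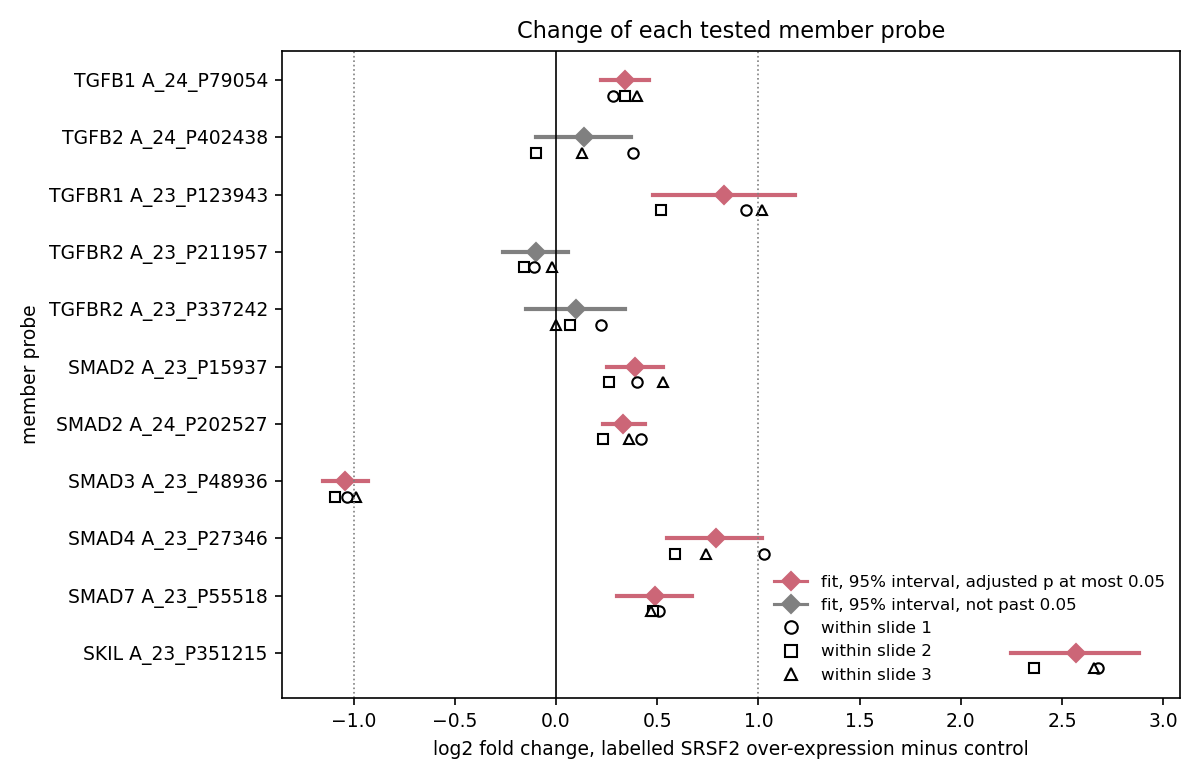
Log2 fold change of the 11 tested member probes (horizontal axis, arrays labelled SRSF2 over-expression minus control, 6 arrays each) with 95% intervals (diamonds and bars), and the difference within each of the 3 slides (open points); dotted lines mark 2-fold. All 3 slides have the direction of the fit for each of the 8 probes that passed, and slide 2 has the opposite sign for TGFB2.

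SMAD4, the common partner of the receptor SMADs in TGF-beta and BMP signalling, rose. Its probe A_23_P27346 had log2 signals of -3.47, -3.38 and -3.20 on the control arrays, as the lowest, median and highest. Those of the arrays labelled SRSF2 over-expression were -2.77, -2.71 and -2.23. No value was shared between the conditions, and both arrays of slide 1 stood highest among the latter. The change on the log2 scale was 0.79 (standard error 0.11, 95% interval 0.55 to 1.02, limma adjusted p = 3.81e-05), a 1.72-fold rise, with 1.03, 0.59 and 0.74 within the slides. Under normexp the change was 0.059 and did not pass (limma adjusted p = 0.939).

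SMAD7, the inhibitory SMAD that blocks the type I receptor and is itself a target gene of the pathway, rose by less. Probe A_23_P55518 ran from -1.63 through -1.41 to -1.20 on the control arrays. It ran from -1.10 through -0.88 to -0.77 for the arrays labelled SRSF2 over-expression. The highest control array and the lowest of the others were close to each other but did not overlap. The rise was 0.49 on the log2 scale (standard error 0.08, 95% interval 0.30 to 0.67, limma adjusted p = 0.000299), or 1.40-fold, and nearly equal on the 3 slides, at 0.51, 0.48 and 0.47. Normexp gave 0.20, which did not pass (limma adjusted p = 0.603).

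SKIL, which encodes the SMAD corepressor SnoN and is a rapidly induced target of the pathway in many cells, had the largest change of the 11 probes. Its probe, A_23_P351215, read a processed intensity of 103 to 145 on the control arrays. On the arrays labelled SRSF2 over-expression it read 553 to 946, and it was well above background on all 12. On the log2 scale the control arrays had -3.33, -3.06 and -2.75 as the lowest, median and highest, and the others had -0.84, -0.60 and -0.08. A gap of 1.90 separated the conditions, wider than the range of either. The log2 fold change was 2.57 (standard error 0.15, 95% interval 2.25 to 2.88, limma adjusted p = 1.67e-08), or 5.93-fold with an interval of 4.76 to 7.37, and it was 2.68, 2.36 and 2.66 within the slides. This was rank 62 from the top of the 24330 tested probes. The call held under all 18 alternatives, but the size did not: it was 1.90 without background subtraction and 1.19 with normexp (limma adjusted p = 0.0441). For each of the 7 member probes whose conditions did not overlap, the exact permutation test gave a two-sided p of 0.00216, the smallest that 6 arrays against 6 can give. That test takes the 12 arrays as independent, though they share slides and the methods describe 2 arrays per labeling. This p is therefore smaller than the same test over separate labelings could give.

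**Figure D3:**
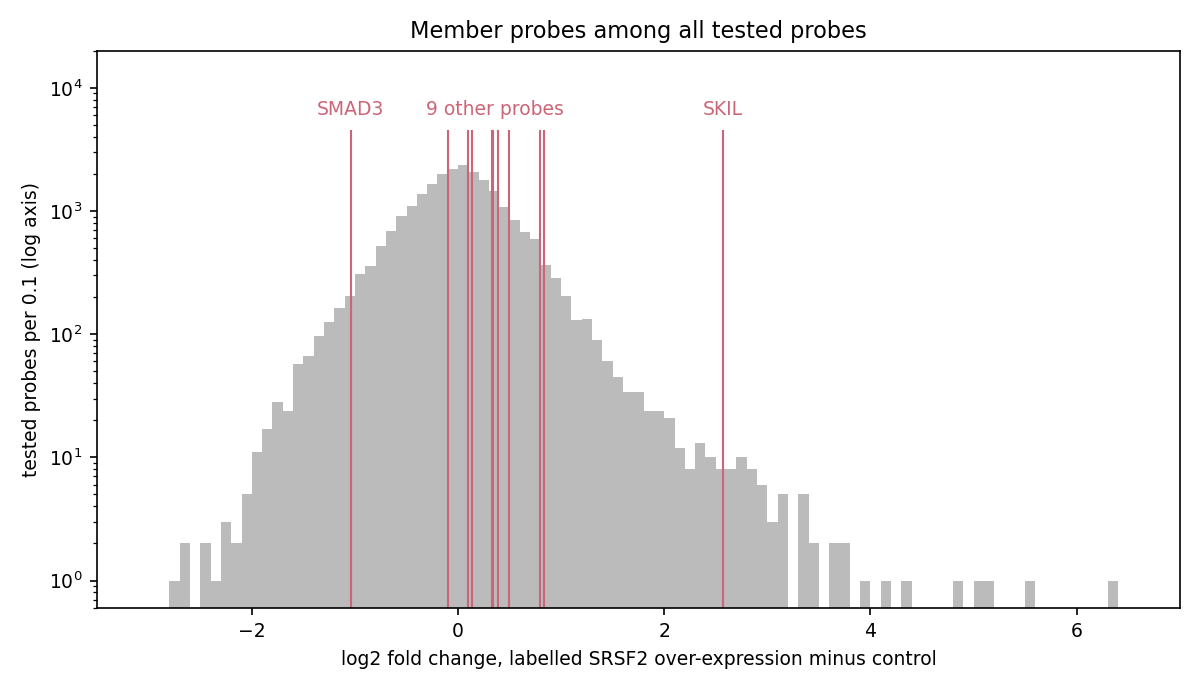
Number of tested probes (vertical log axis) per 0.1 of log2 fold change (horizontal axis, arrays labelled SRSF2 over-expression minus control) for all 24330 tested probes in grey, with the 11 member probes as vertical lines. SKIL at 2.57 lies in the thin upper tail, SMAD3 at -1.04 in the lower shoulder, and the other 9 probes between -0.10 and 0.83 in the body.

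Of the alternative settings, the background correction ended the most member calls. With normexp, which models the background and adds an offset of 50 before the logarithm, the calls over the whole table fell to 1410 higher and 1409 lower, and the member calls to 2 higher, those of SKIL and SMAD2 A_23_P15937, and 1 lower, that of SMAD3. The probes that no longer passed were those of TGFB1, TGFBR1, SMAD4 and SMAD7 and SMAD2 A_24_P202527. Spike-in scaling ended that last call as well, and the remaining 16 settings ended none of the 8, with TGFBR1 left untested by the strictest filter.

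**Figure D4:**
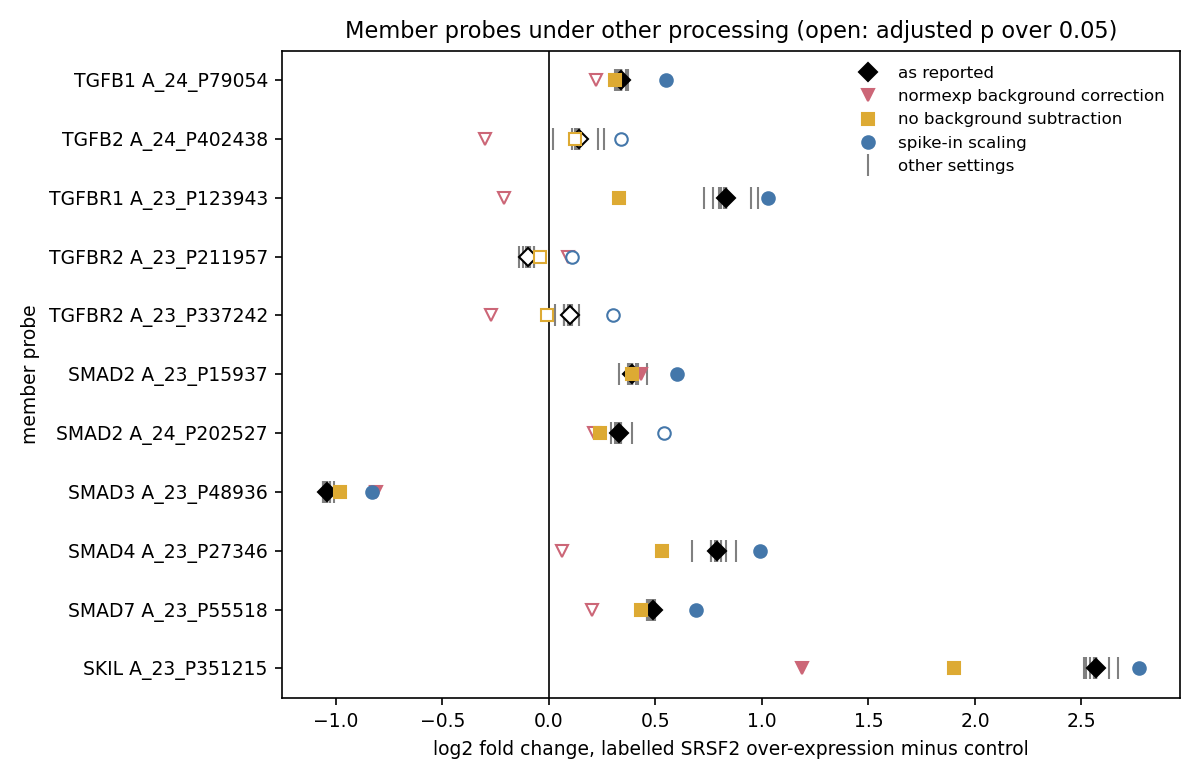
Log2 fold change of the 11 tested member probes (horizontal axis, arrays labelled SRSF2 over-expression minus control) as reported (diamonds), with normexp (triangles), without background subtraction (squares), with spike-in scaling (circles) and under the other settings (ticks); open symbols of the first 4 kinds have an adjusted p over 0.05. The triangles lie near 0 or past it for TGFBR1 and SMAD4, and the circles are shifted upwards for every probe.

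The probes most like SMAD3 over the 12 arrays, among 16026 named probes, were those of OSGEP (Pearson r = 0.9986), which acts in transfer RNA modification, UTP11 (0.9977), a factor of ribosome assembly, and GINS2 (0.9975), a subunit of the DNA replication helicase. Those most like SKIL were the zinc finger gene ZNF562 (0.9962), the mitotic kinesin gene KIF11 (0.996) and SLFN12 (0.9958). The points of each correlation share their slides and conditions, so the values are a description.

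The wider pathway was read from 6 lists with 98 other genes, of which 96 had a probe and 77 a tested one. Of 114 tested probes, 39 were higher, 28 were lower and 47 did not pass, and the median log2 fold change was 0.04. The shares of 34.2% higher and 24.6% lower are near the 29.7% and 28.0% of all tested probes. With spike-in scaling 29 were higher and 7 lower. At 2-fold, 3 of the 114 were higher and 6 were lower, beside 3.68% and 3.31% of all tested probes.

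Among the other ligands, 1 of 10 tested probes was higher and 3 were lower, or 10.0% and 30.0%, beside 29.7% and 28.0% of all tested probes. The median of the list was -0.07. TGFB3, the third TGF-beta isoform, rose by 0.57 (limma adjusted p = 0.00139). INHBA, the activin A subunit, fell by 0.33 (limma adjusted p = 0.00245), and the bone morphogenetic protein BMP4 fell by 0.27 (limma adjusted p = 0.00345). None of these calls held with normexp, and those of INHBA and BMP4 were lost with spike-in scaling (-0.12 and -0.06) and with means of 2 arrays too, and that of BMP4 also without background subtraction.

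Among the genes of latency, activation and extracellular antagonism, 5 of 19 probes were higher and 2 lower, or 26.3% and 10.5%. Of all tested probes, 29.7% and 28.0% were. The median of the list was 0.03. One of the 5, ITGB8 A_24_P759477, was well above background on 2 control arrays only. LTBP2, a latent TGF-beta binding protein of the matrix, rose by 0.41 on A_23_P218144 (limma adjusted p = 0.000218). Its other probes were at 0.24 (A_24_P176173, limma adjusted p = 0.0355), 0.03 (A_23_P405129, limma adjusted p = 0.889) and -0.20 (A_24_P167668, limma adjusted p = 0.198). Its relative LTBP1, which tethers the latent ligand, fell by 0.33 (limma adjusted p = 0.00145). FSTL3, a secreted binder of activin, rose by 0.28 (limma adjusted p = 0.00121). With normexp none of these calls held and LTBP2 A_23_P218144 turned to -0.14, and with spike-in scaling and with means of 2 arrays those of LTBP1 (-0.13 with spike-in scaling) and FSTL3 (0.49, limma adjusted p = 0.0939) were lost.

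For the other receptors, 5 of 12 probes were higher and 2 lower, or 41.7% and 16.7%, beside 29.7% and 28.0% of all tested probes. The median of the list was 0.09. One of the 5, BMPR1B A_24_P63380, was well above background on 3 control arrays only and passed the filter through the other condition. ACVR1C, the type I receptor ALK7, rose by 0.47 (limma adjusted p = 0.000622), and ACVR1, a type I receptor used by BMPs, fell by 0.28 (limma adjusted p = 0.000673). BMPR2 fell by 0.52 on A_24_P753161 (limma adjusted p = 0.00198) and rose by 0.13 on A_23_P96144 (limma adjusted p = 0.0221). With normexp the 3 leading calls were lost, and ACVR1C was at -0.19. Spike-in scaling ended those of ACVR1 (-0.08) and BMPR2 A_24_P753161 (-0.31), and means of 2 arrays that of ACVR1.

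Where 29.7% of all tested probes were higher, all 4 tested probes of the other SMADs, from 3 genes, were, with a median of 0.39. They were those of SMAD6, the inhibitory SMAD of the BMP branch (0.58, limma adjusted p = 8.79e-05), SMAD5 (0.41, limma adjusted p = 0.000146) and SMAD1 (0.38, limma adjusted p = 0.000311, and 0.27, limma adjusted p = 0.0095), the BMP receptor SMADs. With normexp SMAD6 was at 0.16 and SMAD5 at 0.05, both short of the threshold, and SMAD1 A_23_P212870 was at 0.39 (limma adjusted p = 0.0512).

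The list of SMAD cofactors, repressors and regulators held the 2-fold falls. Of its 33 probes, 8 were higher (24.2%) and 11 lower (33.3%), shares close to those of all tested probes, and the median was -0.13. Of the 11 lower, 6 were so by at least 2-fold, where 3.31% of all tested probes were. One of the 8 higher, PPM1A A_24_P407323, was well above background on 3 control arrays only. PMEPA1, a TGF-beta-induced membrane protein that sequesters receptor SMADs, fell on both of its probes. A_24_P413126 ran from 2.85 to 3.00 on the control arrays and from 1.28 to 1.53 on the others, which is a fall of 1.52 on the log2 scale (standard error 0.06, limma adjusted p = 6.67e-10). A_23_P57089 ran from 3.96 to 4.22 and from 2.71 to 3.05, which is a fall of 1.26 (standard error 0.07, limma adjusted p = 2.02e-08). The conditions did not overlap on either, and both changes stayed past 2-fold under all 18 alternatives, at -1.57 to -1.06.

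The remaining 2-fold falls were each carried by 1 probe of a gene. NEDD4L, a ubiquitin ligase that marks activated receptor SMADs for degradation, fell by 1.08 on A_24_P108311 (limma adjusted p = 5.39e-08), whereas A_23_P387856 rose by 0.36 (limma adjusted p = 1.59e-05) and A_23_P27279 by 0.21 (limma adjusted p = 0.00242). Neither of these rises passed with normexp. That of A_23_P27279 was also lost with spike-in scaling and with means of 2 arrays, with or without the slide as a block. TAB1, an activator of the kinase TAK1, fell by 1.07 (limma adjusted p = 8.81e-06). USP15, a deubiquitinase of receptor SMADs and of the type I receptor, fell by 1.04 on A_23_P204269 (limma adjusted p = 6.84e-06) and by 0.48 on A_32_P57057 (limma adjusted p = 0.00913), and neither passed with normexp. The call of A_32_P57057 was also lost with spike-in scaling (-0.28), with means of 2 arrays and without slide 1. SKI, the corepressor related to SKIL, fell by 1.34 on A_24_P338603 (limma adjusted p = 0.000645), where the conditions overlapped, and did not pass there with normexp (-0.80, limma adjusted p = 0.356). Its other probe, A_23_P325631, was at -0.12 (limma adjusted p = 0.56). SMURF2, a ubiquitin ligase that SMAD7 brings to the receptors, was just under 2-fold higher (1.00, limma adjusted p = 7.25e-06); it is named after its value was seen.

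Among genes known to respond to TGF-beta, 16 of 36 probes were higher (44.4%) and 10 lower (27.8%), with a median of 0.16. Of all tested probes, 29.7% were higher and 28.0% lower. The list also holds genes that TGF-beta is known to repress, so the counts give no direction of the pathway. The 3 probes past 2-fold were of ID2 and ID3, inhibitors of basic helix-loop-helix factors that the BMP branch induces and that TGF-beta is known to repress in epithelial cells. ID2 was higher on both probes, by 1.31 on A_23_P143143 (limma adjusted p = 4.68e-09) and by 1.37 on A_32_P69368 (limma adjusted p = 1.25e-07), and ID3 was higher by 1.15 (standard error 0.04, limma adjusted p = 6.05e-10). ID3 ran from 1.02 to 1.10 on the control arrays and from 2.12 to 2.29 on the others. With normexp ID3 was at 1.16, and the ID2 probes were at 0.63 and 0.80 and did not pass.

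**Figure D5:**
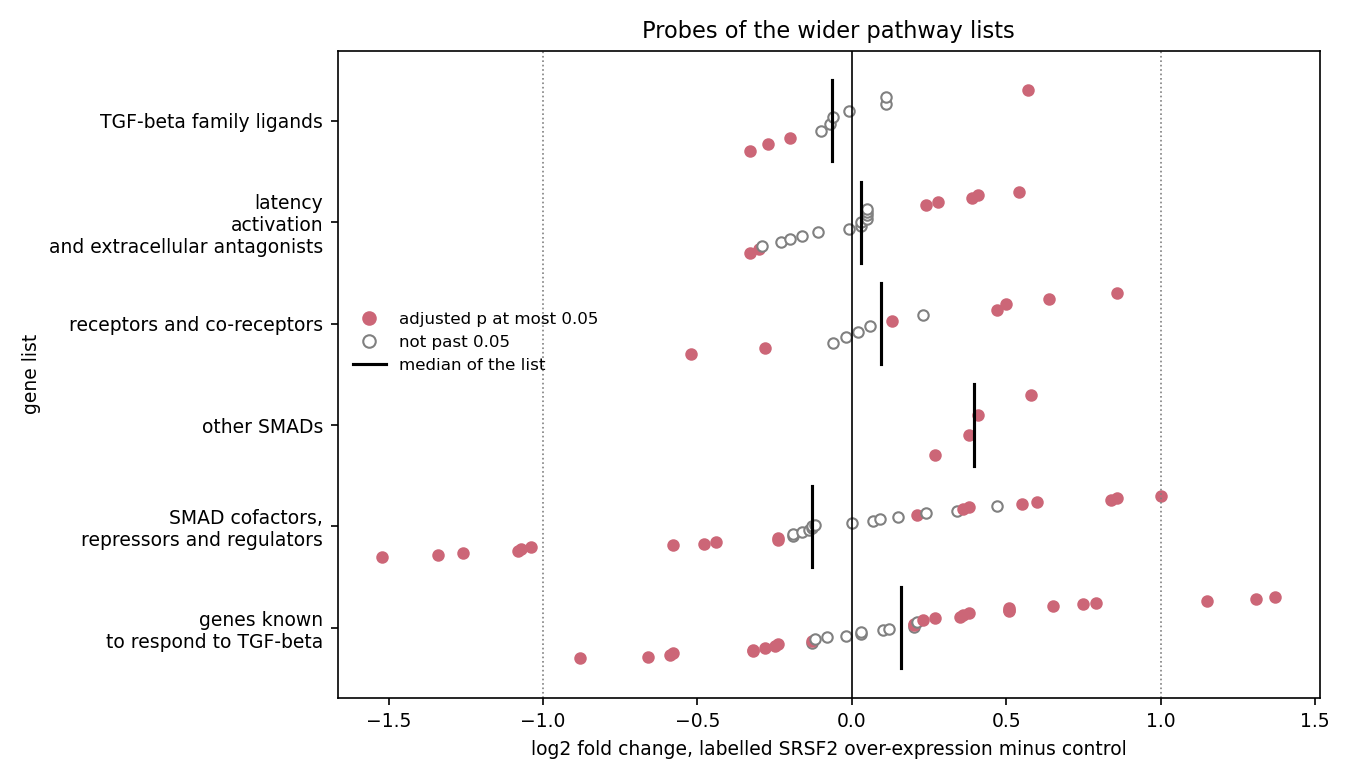
Log2 fold change (horizontal axis, arrays labelled SRSF2 over-expression minus control) of the 114 tested probes in 6 lists of other pathway genes, with filled points for an adjusted p of at most 0.05, a bar at the median of each list and dotted lines at 2-fold. The 6 probes past 2-fold on the lower side are all in the list of cofactors, repressors and regulators, and the 3 on the higher side among genes known to respond to TGF-beta. Of all tested probes, 3.31% were past 2-fold on the lower side and 3.68% on the higher side.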

How the data were processed

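Per the file headers, the processed intensity of each spot was made with Feature Extraction 10.7.3.1, which subtracts the background. The authors also deposited log2 values. That deposited log2 table was within 0.01 of the log2 intensity scaled on the 75th percentile and centred by probe, for 80.08% of values once an offset of at most 0.0693 per array was removed. The paper's methods name GeneSpring GX, a t-test adjusted by Benjamini-Hochberg and the exclusion of genes missing in over 25% of samples. Fold changes were computed here.

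Outlier-flagged and control spots were dropped, spots of a probe averaged, and the 75th percentile of gene probes subtracted. A probe was kept if missing on at most 25% of arrays and if 5 or more of the 6 arrays of a condition had it well above background. The test was limma 3.58.1 (R 4.3.3; lmFit, eBayes), 6 arrays against 6, with Benjamini-Hochberg adjustment over 24330 probes. Exact tests used scipy. The number of arrays and of labelings limits the precision, and the main fit leaves out the slide.

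Symbols come from the RefSeq gene table of GRCh38.p14: 25868 probes carry a RefSeq accession, 23958 of them matched, and 17042 probes are unnamed here. Probe coordinates (hg18 in the files) are not given, and promoters are from RefSeq. The text names all member probes, SRSF2, and of each list the genes with a probe past 2-fold, otherwise the 3 probes with the smallest adjusted p, and, for members past 2-fold, the 3 most correlated probes. Members and lists were chosen with earlier results of these data known.

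Same-numbered arrays of the 2 conditions deviated together (6 correlations, 0.313 to 0.728), as did other arrays of the same slide (0.392 to 0.727), unlike arrays of different slides (-0.547 to -0.0552). The pairing, which comes from the labels' replicate numbers, is that of the slide. Alternatives were other scalings, background corrections and filters, the authors' table, the methods' t-test, slide or replicate blocks, means of 2 arrays and leaving out slides. Leaving out control replicate 3 and SRSF2 over-expression replicate 4 was chosen after seeing the data.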

Additional observations from a re-analysis of the deposited data

Results flagged for a closer look

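On TGFBR1 A_23_P123943, replicate 4 of the arrays labelled SRSF2 over-expression had a log2 signal of -4.82, far below the next value of that condition, -3.99; this gap was 0.814 of the range of the 6 arrays. On TGFBR2 A_23_P211957, replicate 2 of the control arrays had 2.65, above the next value of 2.35, a gap of 0.777 of the range. These were the 2 of 22 groups of 6 arrays in which the gap of the highest or lowest array passed Dixon's critical value, a rule that picks about 1 group in 20 by chance. The cause was not tested.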

How the results depend on the processing

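SKIL and SMAD3 kept their direction and passed the test under all 18 alternatives. Normexp gave 2 higher member probes in place of 7, and 1 changed 2-fold in place of 2; without background subtraction 1 changed 2-fold. Of the pathway probes, 7 were higher with normexp in place of 39. Those lower fell from 28 to 7 with normexp, 7 with spike-in scaling and 15 with means of 2 arrays. Those changed 2-fold fell from 9 to 3 with normexp and 5 without background subtraction. Signs turned for TGFB2 (-0.30 with normexp), TGFBR1 (-0.21 with normexp), TGFBR2 A_23_P211957 (0.11 with spike-in scaling, 0.091 with normexp) and TGFBR2 A_23_P337242 (-0.27 with normexp, -0.013 without background subtraction), and the cause was not tested. With the replicate block, the members had 7 higher and 1 lower, and pathway probes 44 and 31, so it moved no member count. The mean spot signal is not among the columns used, so normexp and the setting without subtraction used the median. For TGFB2, TGFBR1 and the dim SMAD2 probes, signal over background limits what can be read.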
